A study of Mus musculus with 6 samples.

Results

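The Hox genes encode homeodomain transcription factors that lie in 4 clusters, Hoxa, Hoxb, Hoxc and Hoxd, and are numbered by paralog group along each cluster. They were examined here in colon RNA sequencing from 2 groups of 3 libraries. The members were all genes whose symbol is Hox, a cluster letter and a paralog number, which gave 36 of the 24517 genes listed, with 11 in Hoxa, 9 in Hoxb, 7 in Hoxc and 9 in Hoxd. The family was chosen by the spread of its levels among the libraries in earlier results of these data, so that spread is given below as a description, without a test. The difference between genotypes was tested, since membership rests on the symbol alone.

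Control Nsd2fl/fl mice carried a floxed Nsd2 gene, which encodes a histone H3 lysine 36 methyltransferase. Nsd2ΔIE mice lost it in the intestinal epithelium, where the Villin promoter drives Cre recombinase. Both groups shared the floxed allele, per the study's methods a C57BL/6J background, and a high-fat, high-cholesterol diet (HFCD), fed for 16 weeks per the labels, while the methods give a longer feeding period. The RNA came from whole colon tissue, so cells in which Villin-Cre is not active contribute to every value, and fewer cells of a type and less RNA per cell cannot be told apart. The labels give neither age nor the place along the colon from which a piece was taken.

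During development the Hox genes are switched on in sequence along each cluster, genes with low numbers at the front of the body and those with high numbers towards the tail. In the gut the pattern is kept into adult life, and genes of paralog group 13 mark the hindgut end. Hox proteins bind DNA with cofactors of the TALE class (Pbx, Meis), Cdx2 and retinoic acid act on the clusters, and Polycomb and trithorax complexes keep genes silent or active.

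Each library held 38041832 to 38604680 counts. Control libraries had 1840, 2091 and 2455 counts of Nsd2 itself, and Nsd2ΔIE libraries 972, 914 and 1139. Xist, transcribed from the inactive X chromosome, ran from 0 to 4 counts in controls and from 21217 to 24234 in Nsd2ΔIE, while 4 Y-linked genes summed to 5058 to 6110 and to 0 to 1 counts. The methods name male littermates, which the counts of the Nsd2ΔIE libraries do not match. As the 2 groups differ in this sex-linked pattern without overlap, it cannot be told apart from genotype throughout what follows. The first principal component held 51.03% of the variance and did not follow genotype: Nsd2fl/fl 1, Nsd2fl/fl 3 and Nsd2ΔIE 1 scored 50.4, 55.17 and 34.89, whereas Nsd2fl/fl 2, Nsd2ΔIE 2 and Nsd2ΔIE 3 scored -55, -53.01 and -32.44.

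Where the start of a Hox gene is in the RefSeq promoter table (GRCm38.p6, the build mm10), the 250 bases before it were read. There were 23 such promoters for 21 of the 36 genes. For 5 of them the start lies inside the gene's listed span, at a later transcript start. Below are 3 of them, the promoters of genes with a wide spread among the libraries, Hoxb8 and Hoxd4 in one order and Hoxd13 in the other. Capitals mark TTTATG, the core that Cdx proteins bind, and TGATNNAT, the PBX-HOX composite site, each on either strand. All 3 sequences lie on the plus strand, Hoxb8 at chr11:96281655-96281904, Hoxd4 at chr2:74721728-74721977 and Hoxd13 at chr2:74667975-74668224. The Hoxb8 start used lies 2504 bases inside the span listed for the gene, which begins at an earlier transcript, whereas those of Hoxd4 and Hoxd13 are the first base of the gene.

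Hoxb8: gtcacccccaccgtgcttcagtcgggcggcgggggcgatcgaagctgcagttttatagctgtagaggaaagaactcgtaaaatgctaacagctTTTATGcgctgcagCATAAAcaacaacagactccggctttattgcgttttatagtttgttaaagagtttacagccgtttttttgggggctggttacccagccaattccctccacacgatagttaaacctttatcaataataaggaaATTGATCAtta
Hoxd4: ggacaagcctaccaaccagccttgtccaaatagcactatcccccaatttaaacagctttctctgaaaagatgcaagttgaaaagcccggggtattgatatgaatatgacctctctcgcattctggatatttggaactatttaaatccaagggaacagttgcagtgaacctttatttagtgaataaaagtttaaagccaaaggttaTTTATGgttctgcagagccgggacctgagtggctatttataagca
Hoxd13: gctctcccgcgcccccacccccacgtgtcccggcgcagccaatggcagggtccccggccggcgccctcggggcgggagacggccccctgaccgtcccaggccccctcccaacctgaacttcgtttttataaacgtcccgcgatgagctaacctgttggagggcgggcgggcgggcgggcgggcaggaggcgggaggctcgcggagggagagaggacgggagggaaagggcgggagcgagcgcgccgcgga

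The Hoxb8 promoter held 2 matches to TTTATG, the first base of each lying 157 and 143 bases before the start, and 1 match to TGATNNAT, 11 bases before it, with no overlap between matches. One match to TTTATG lay in the Hoxd4 promoter, 45 bases before the start, and neither motif in that of Hoxd13. Among other genes with the order of Hoxb8, the Hoxd3 promoter held TTTATG, and those of Hoxa11, Hoxb4, Hoxd8 and Hoxd9 did not. With the order of Hoxd13, the promoters of Hoxa13 and Hoxd12 held none. Promoters of Hoxa7 and Hoxd11, which had neither order, also held it. No Hoxb13 promoter was among the 23. TTTATG was in 5 of the 23 Hox promoters (21.7%) and in 10.8% of all 32851 promoters of this length, and TGATNNAT in 3 (13.04%) and in 7.68%. The Hoxd13 promoter had 31 CpG dinucleotides and 74.4% G and C, against 12 and 44.4% for Hoxb8 and 3 and 40.4% for Hoxd4. With the order of Hoxd13, Hoxd12 had 10 and 55.6%, and Hoxa13 35 and 80%. Hoxd9, with the order of Hoxb8, had 13 and 65.2%. The median over the 23 was 13 CpG dinucleotides, and over all promoters 6. Whether these letters are bound in colon was not measured.

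Within each cluster the genes were not equally active. The Hoxa cluster (chr6:52155367-52260880) was transcribed in all 6 libraries. Hoxa10, which has a known role in the female reproductive tract, had the highest mean level of the cluster, 12.4 FPKM (reads scaled to gene length and library total). Its counts were 1602, 1027 and 1417 in Nsd2fl/fl 1 to 3 and 1479, 1257 and 2148 in Nsd2ΔIE 1 to 3. The groups overlapped, and the highest level, in CPM (counts scaled to the library total with TMM factors), was 1.78 times the lowest. Hoxa2, which patterns the hindbrain and second arch, was the steadiest, with 89 to 143 counts. Hoxa5, Hoxa7 and Hoxa9 ranged from 3.88 to 12.0, from 5.14 to 12.6 and from 3.92 to 10.4 FPKM.

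Hoxa13, needed for the development of the hindgut and urogenital end, had the widest range of the cluster. Its highest CPM was 4.86 times its lowest, against 3.77 times for Hoxa6. It had 693, 133 and 514 counts in Nsd2fl/fl 1 to 3, and 724, 225 and 541 in Nsd2ΔIE 1 to 3. Nsd2fl/fl 2 and Nsd2ΔIE 2 were the lowest, as they were in CPM for Hoxa3, Hoxa5, Hoxa6, Hoxa7, Hoxa9 and Hoxa10. The other 4 libraries lay close together. Hoxa11, its neighbour in the cluster, went the other way, with 265, 478 and 232 counts against 338, 629 and 968.

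The Hoxb cluster (chr11:96194316-96354020) held the member with the highest mean level. Hoxb13, the most 5′ gene of the cluster and a marker of the distal hindgut and prostate, had 14052, 25 and 12125 counts in Nsd2fl/fl 1 to 3 and 12288, 197 and 1086 in Nsd2ΔIE 1 to 3. In FPKM these were 269.8, 0.477 and 233, and then 233, 3.73 and 20.65. Nsd2fl/fl 1, Nsd2fl/fl 3 and Nsd2ΔIE 1 therefore lay near each other and far above the other 3 libraries, with both genotypes in each set. The lowest of these 3 was 11.8 times the highest of the rest, and the range over all 6 was 517-fold in CPM. Among the 16347 genes tested, Hoxb13 was number 20 by the SD of log2 CPM over the libraries, and Hoxd13, described below, number 11, the widest of the Hox genes.

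Genes from the middle of the Hoxb cluster had the opposite order. Hoxb8, a gene of trunk and haematopoietic identity, had 2, 860 and 4 counts in Nsd2fl/fl 1 to 3 and 21, 930 and 567 in Nsd2ΔIE 1 to 3. Hoxb6 had 55, 2461 and 39, and then 83, 1717 and 1105. Hoxb7 had 23, 786 and 18, and then 41, 851 and 436. In all 3 of these genes, which were singled out after their values were seen, the libraries with high Hoxb13 were the lowest, by 10.16 times or more in CPM. Hoxb3, Hoxb4 and Hoxb5 kept this order with gaps of 5.67, 2.79 and 1.88 times. Hoxb9, between them and Hoxb13, had the smallest gap in this direction, 1.28 times, with 16.7 to 33.2 FPKM throughout. Hoxb13 was thus 301 times Hoxb6 in FPKM in Nsd2fl/fl 1, and 0.0120 times it in Nsd2fl/fl 2.

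The Hoxd cluster (chr2:74668225-74765142) divided in a similar way. Hoxd13, which acts in limb, genital and anal sphincter development, had 937, 0 and 1379 counts in Nsd2fl/fl 1 to 3 and 455, 0 and 7 in Nsd2ΔIE 1 to 3. A count of 0 in these libraries allows up to 3 counts. The 3 libraries with many Hoxb13 reads were again the high ones, with the lowest 68.0 times the next in CPM. Hoxd12, beside it, had 24, 0 and 42, and then 26, 2 and 0 counts. Hoxd4, in the 3′ part, had 44, 368 and 20, and then 57, 388 and 430. Hoxd3, Hoxd8 and Hoxd9 had the same order as Hoxd4, with gaps of 4.24, 3.44 and 3.81 times. Hoxd10 and Hoxd11, which lie between, followed neither order, at 0.568 to 3.36 and 0.349 to 0.962 FPKM.

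The Hoxc cluster (chr15:102954526-103036856) was close to silent. Its 7 genes summed to at most 0.858 FPKM in a library, and Hoxc4 had the highest mean, 0.133 FPKM, from 15, 17 and 25 counts in Nsd2fl/fl 1 to 3 and 31, 18 and 40 in Nsd2ΔIE 1 to 3. Hoxc6 had 39 counts in Nsd2fl/fl 2 and 25 in Nsd2ΔIE 2, and 0 to 2 in the other libraries. Hoxc10 had 25 and 26 in those same libraries and 0 to 3 elsewhere. Hoxc8 had 1 count in all libraries together.

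**Figure D1:**
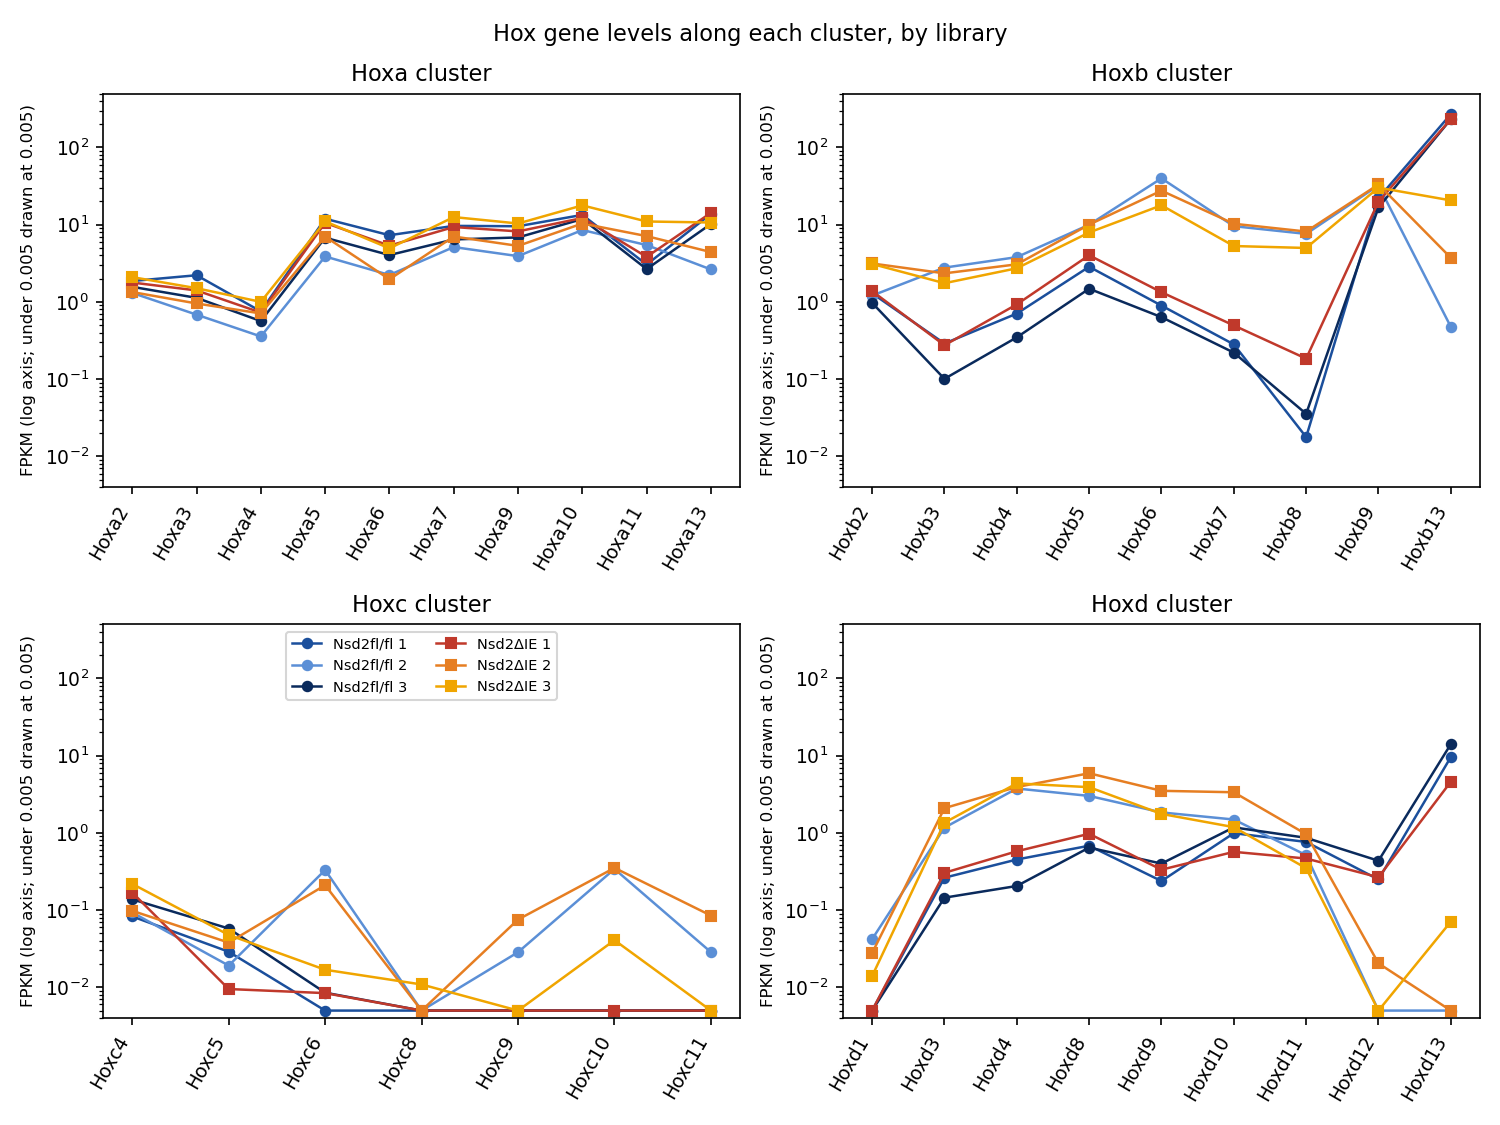
FPKM of Hox genes in each of 6 libraries (circles, Nsd2fl/fl; squares, Nsd2ΔIE), ordered by paralog number in 4 panels, one per cluster. The vertical axis is logarithmic, values under 0.005 are drawn at 0.005, and gene spacing is not to scale. The Hoxa lines run close together, and at Hoxb13 the libraries spread from 0.477 to 269.8 FPKM.

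Over the tested genes the order of the libraries was counted. The 3 libraries highest for Hoxb13 were also the highest for 4 of 29 Hox genes, Hoxb13 included (all genes, 12.8%), namely Hoxa13, Hoxb13, Hoxd12 and Hoxd13. They were the lowest for 12 of 29 (all genes, 9.55%): Hoxa11, all from Hoxb3 to Hoxb9, Hoxd3, Hoxd4, Hoxd8 and Hoxd9. The remaining 13 had neither order. Nothing is read from these counts, as the family was chosen on the same spread. By library totals alone, an alternative added after seeing the data, the counts were 3 and 13. Hoxa13, with 514 counts in Nsd2fl/fl 3 and 541 in Nsd2ΔIE 3, left the first set, and Hoxd10, with 125 and 127, joined the second.

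The sum over the family can be divided by paralog number. Genes of groups 9 to 13 held 89.2%, 37.3% and 92.0% of the summed Hox FPKM in Nsd2fl/fl 1 to 3, and 88.1%, 43.0% and 54.5% in Nsd2ΔIE 1 to 3. Groups 4 to 8 held 58% in Nsd2fl/fl 2, 51.1% in Nsd2ΔIE 2 and 40.3% in Nsd2ΔIE 3, but 6.68% to 10.3% in the other libraries. Without Hoxb13 the share of groups 9 to 13 was 63.9%, 37.1% and 71.7% in Nsd2fl/fl 1 to 3, and 61.8%, 41.7% and 49% in Nsd2ΔIE 1 to 3. The mean share was 72.8% ± 30.8 (SD, n = 3) in Nsd2fl/fl and 61.9% ± 23.4 (SD, n = 3) in Nsd2ΔIE, and the groups overlapped. Hoxb13 alone made up 90.5%, 0.443% and 91.9% of the Hoxb sum in Nsd2fl/fl 1 to 3, against 89.1%, 3.67% and 21.9% in Nsd2ΔIE 1 to 3. In the Hoxd cluster, Hoxd12 and Hoxd13 together held 60.1% to 80.9% of the sum in Nsd2fl/fl 1, Nsd2fl/fl 3 and Nsd2ΔIE 1 and 0 to 0.544% in the others. The Hoxa sum ran from 34.3 to 83.1 FPKM, the Hoxd sum from 8.08 to 19.8 and the Hoxb sum from 94.5 to 298.2. Nsd2ΔIE 3 lay between the extremes for Hoxb13 and near the other low libraries for Hoxd13.

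**Figure D2:**
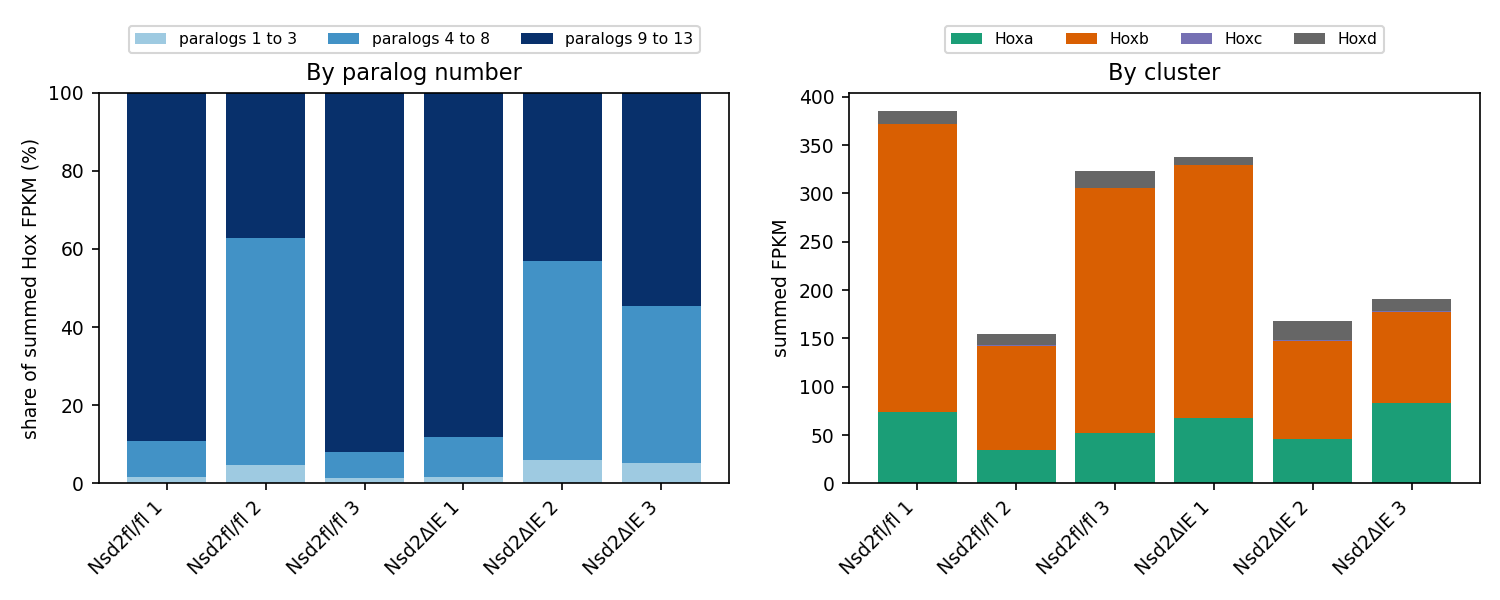
Left, the share of summed Hox FPKM (%) held by paralogs 1 to 3, 4 to 8 and 9 to 13 in each library. Right, the summed FPKM, stacked by cluster. The sum runs from 154.5 FPKM in Nsd2fl/fl 2 to 385 in Nsd2fl/fl 1, with Hoxb the largest part of every bar.

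The genotype comparison asked whether losing Nsd2 in the epithelium altered the Hox genes. No Hox gene differed after adjustment over all genes. Of the 29 that passed the filter on low counts, 0 had an adjusted p under 0.05 by edgeR's quasi-likelihood test (all genes, 0.0306%). By DESeq2 it was also 0, against 455 of all 16347 genes, and 2 Hox genes had no adjusted p there. By limma-voom it was 0, against 5 of the 16347. At an unadjusted p under 0.05, 1 was higher in Nsd2ΔIE (all genes, 8.15%) and 0 were lower (all genes, 2.96%). The groups did not overlap for 1 gene higher in Nsd2ΔIE (all genes, 11.4%) and for 0 lower (all genes, 7.28%). The fitted change lay above 0 for 22 genes and below 0 for 7, with a median log2 fold change of 0.29 against -0.04 for all genes tested. The libraries low for Hoxb13 were Nsd2ΔIE 2 and Nsd2ΔIE 3 but only Nsd2fl/fl 2 among controls. The part of this uneven split in the fitted changes was not tested. The other 7 genes, Hoxd1 and the Hoxc genes other than Hoxc4, did not exceed 39 counts in any library and were left untested.

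The gene with the lowest p was Hoxb2, which patterns the hindbrain in the embryo. Controls had 85, 80 and 64 counts, and Nsd2ΔIE libraries 92, 210 and 206. All 3 Nsd2ΔIE libraries lay above the controls, though Nsd2ΔIE 1 only just. The means were 2.09 ± 0.254 and 4.20 ± 1.63 CPM (SD, n = 3 each), a log2 fold change of 1.00 ± 0.352 (SE). By edgeR's quasi-likelihood test the adjusted p was 0.378. The use of strand in counting is not given in the sources used here. Exons of 10 Hox genes overlap a gene on the opposite strand and those of 9 a gene on the same strand, so reads of such pairs may be shared. Hoxb2 is among the 10, as its exons overlap those of Hoxb3os, described below.

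For the paralog group 13 genes the spread within a genotype was larger than the difference. Hoxb13 had a mean of 235 ± 204 CPM in Nsd2fl/fl and 114 ± 170.3 in Nsd2ΔIE (SD, n = 3 each). The log2 fold change of -1.05 ± 1.87 (SE) had a 95% interval from -5.49 to 3.39 and an adjusted p of 0.853 by edgeR's quasi-likelihood test. For Hoxd13 it was -2.44 ± 2.13 (SE), from -7.50 to 2.63, and for Hoxa13 0.03 ± 0.620 (SE), from -1.44 to 1.51. Hoxa10 and Hoxc4, the highest of their clusters, had log2 fold changes of 0.13 ± 0.221 and 0.49 ± 0.435 (SE). The intervals of Hoxb13 and Hoxd13 thus cover large changes in either direction. The median SE was 0.619 over the 29 Hox genes and 0.207 over all genes, and it exceeded 1 for 9 Hox genes.

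The count at an unadjusted p rested on single libraries. Without Nsd2fl/fl 2 it was 12 higher in Nsd2ΔIE (all genes, 9.35%), namely Hoxa11, Hoxb2 to Hoxb8, Hoxd3, Hoxd4, Hoxd8 and Hoxd9. The controls then left, Nsd2fl/fl 1 and Nsd2fl/fl 3, were those high for Hoxb13. All of the 12 but Hoxb2 had the order opposite to Hoxb13, and the part of this order in the count was not tested. Without Nsd2ΔIE 1 it was 2, Hoxa11 and Hoxb2 (all genes, 7.8%). Without Nsd2fl/fl 1, Nsd2fl/fl 3, Nsd2ΔIE 2 or Nsd2ΔIE 3 it was 0 (all genes, 10.5%, 5.65%, 4.86% and 4.06%). Hoxd13 was lower at an unadjusted p without Nsd2ΔIE 1 (all genes lower, 3.79%), and Hoxd11 without Nsd2ΔIE 2 (all genes lower, 1.18%). No Hox gene had an adjusted p under 0.05 in any of these fits, in which 3 to 5 of all genes did.

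**Figure D3:**
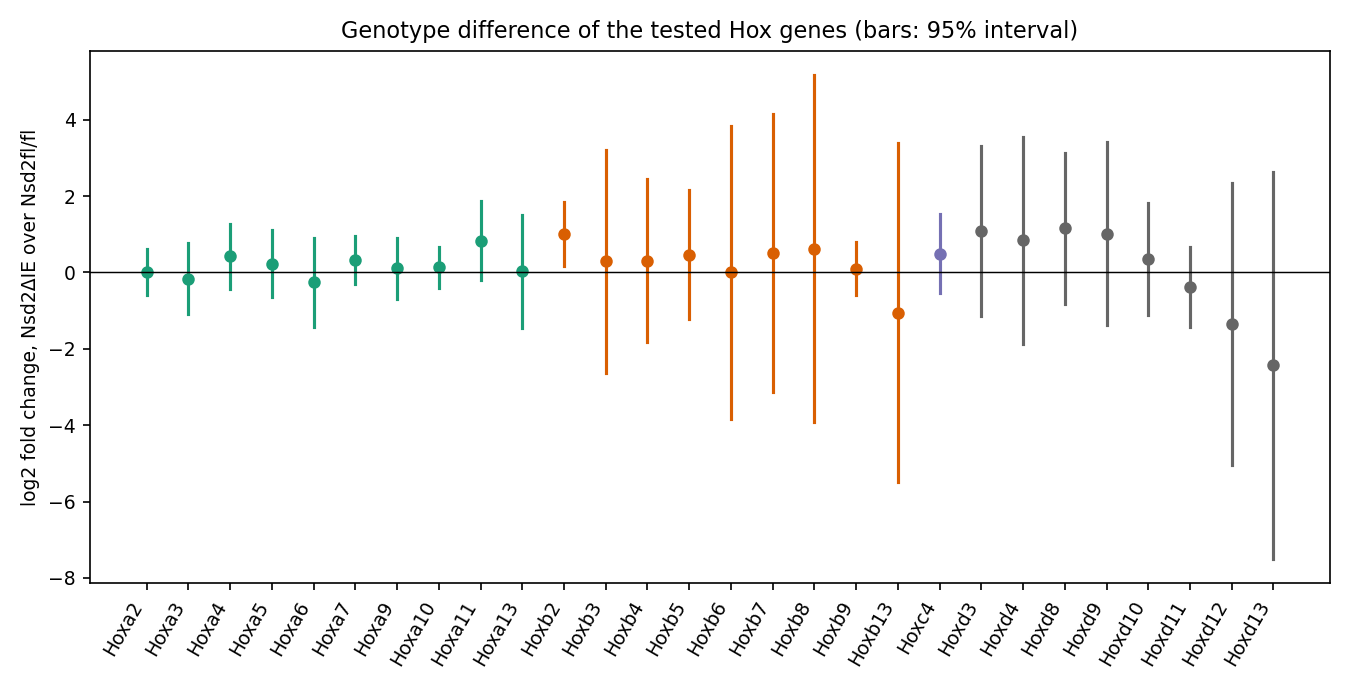
Log2 fold change, Nsd2ΔIE over Nsd2fl/fl, of tested Hox genes, by edgeR. Points are fitted values, bars are 95% intervals, and colours separate the 4 clusters. The shortest bar is that of Hoxa10, and the bars span 0 for all genes shown but Hoxb2.

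Markers of other cell types were compared between the genotypes as well. All 9 smooth muscle genes had a fitted change above 0, 8 of them at an unadjusted p under 0.05 (all genes higher, 8.15%), and their summed level was 1444 to 4131 CPM in Nsd2fl/fl and 5135 to 11000 in Nsd2ΔIE. All 9 genes of the enteric nervous system were higher at an unadjusted p under 0.05 (all genes, 8.15%), with sums of 52.7 to 97.2 and 123.2 to 160.1 CPM. Of 7 tested adipocyte genes, 6 lay above 0, 3 of them at an unadjusted p under 0.05 (all genes higher, 8.15%). The median log2 fold change was 0.15 for endothelial genes and -0.09 for fibroblast genes. At an unadjusted p under 0.05, 0 of 5 and 2 of 7 were higher (all genes higher, 8.15%). Of both lists, 0 genes were lower at that p (all genes lower, 2.96%). The 2 fibroblast genes were Dcn and Lum. Of 9 colon epithelium genes, 7 lay below 0, and all 5 tested B and plasma cell genes did. Their median log2 fold changes were -0.26 and -0.71, against -0.04 for all genes tested. At an unadjusted p under 0.05, 0 genes of either list were lower (all genes, 2.96%). No gene of these lists had an adjusted p under 0.05, and their part in the Hox values was not tested.

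The tissue label was checked against epithelial genes. Muc2, the secreted mucin, had 184318 to 575448 counts, and Vil1, the brush border protein villin, 23095 to 42813. The small intestine list had 7 members with a row, and their levels differed. Lct, the lactase, had 0 to 4 counts in every library. Sis, the sucrase, had 35, 892 and 2 counts in Nsd2fl/fl 1 to 3 and 20, 1861 and 343 in Nsd2ΔIE 1 to 3. Gata4, a transcription factor of the proximal small intestine, had 4, 101 and 1, and then 5, 38 and 29. Both had the order opposite to Hoxb13, as 2 of 5 tested genes of the list (all genes, 9.55%). Apob, the apolipoprotein of chylomicrons, had 3714 to 10916 counts, Rbp2, a retinol binding protein, 231 to 685, and Defa24, a Paneth cell defensin, 0 to 6. Fabp6, the ileal bile acid binding protein, had 8884 counts in Nsd2ΔIE 2 and 2635 in Nsd2ΔIE 3, but 105 to 170 in the other 4 libraries. Between genotypes this was a log2 fold change of 4.91 ± 1.26 (SE), and by edgeR's quasi-likelihood test the adjusted p was 0.303.

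Genes that differ along the normal colon were examined because the place of sampling was not recorded. From 5 listed distal genes, Insl5, a hormone of distal enteroendocrine cells, had 5556, 341 and 6121 counts in Nsd2fl/fl 1 to 3 and 5756, 767 and 1534 in Nsd2ΔIE 1 to 3. Atp12a, the colonic proton pump, had 14338, 52 and 22700, and then 29211, 183 and 497. Both had the order of Hoxb13, as did Scnn1g and Fxyd4 (4 of 5, against 12.8% of all genes), while Scnn1b did not. From 5 proximal genes, Car1, a carbonic anhydrase, had 7245, 277351 and 11243, and then 28663, 319342 and 157628. It shared the reverse order with Fabp2 and Cyp2c55 (3 of 5, against 9.55% of all genes). Aqp4 and Hao2, also named as proximal, instead had the order of Hoxb13, so 2 of the 5 went against the list's name. None of these 10 genes had an unadjusted p under 0.05 between genotypes. All 5 B and plasma cell genes also had the order of Hoxb13 (all genes, 12.8%), the lowest sum being 1043 CPM and the highest 2394 CPM, and their part in the order was not tested.

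**Figure D4:**
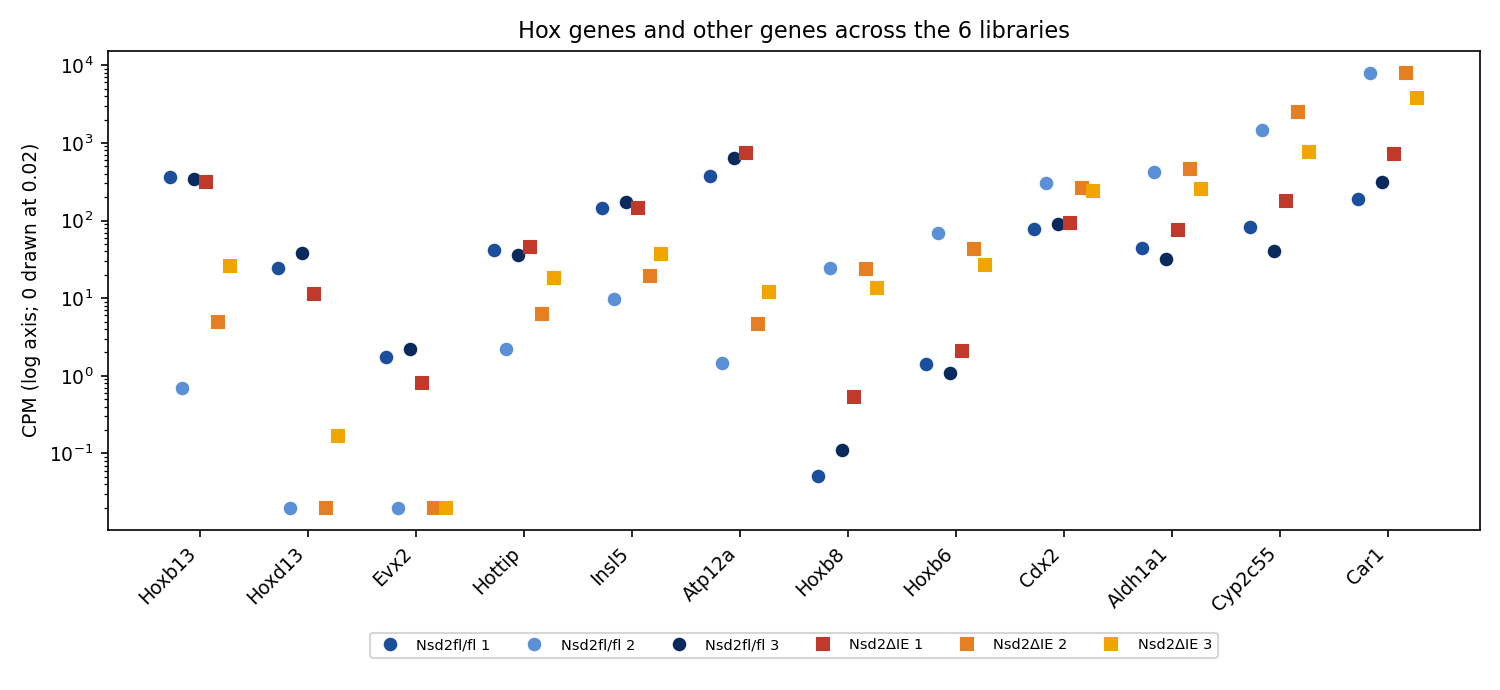
CPM of 4 Hox genes and 8 other genes in the 6 libraries, on a logarithmic axis (circles, Nsd2fl/fl; squares, Nsd2ΔIE; 0 drawn at 0.02). Nsd2fl/fl 1, Nsd2fl/fl 3 and Nsd2ΔIE 1 are the highest 3 for the 6 genes on the left and the lowest 3 for the 6 on the right. The genes shown were chosen for having these orders. Aqp4 and Hao2, which went against their list's name, and Scnn1b, which had neither order, are among the regional genes not shown.

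Cdx1 and Cdx2, caudal-type homeobox regulators of intestinal identity, had the highest levels among the ParaHox and Evx genes. Cdx1 was even, at 12844 to 14732 counts. Cdx2 had 2974, 10782 and 3208 counts in Nsd2fl/fl 1 to 3 and 3697, 10442 and 10043 in Nsd2ΔIE 1 to 3, which is the order opposite to Hoxb13. Evx2, an even-skipped homologue 6.71 kb from the Hoxd cluster and named after its values were seen, had 67, 0 and 78 counts, and then 32, 0 and 0. It thus had the order of Hoxd13. None of the 5 genes of this list had an unadjusted p under 0.05 between genotypes.

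Among the noncoding genes of the clusters, Hottip, which lies 1.90 kb from the Hoxa cluster next to Hoxa13, had 1631, 78 and 1272 counts in Nsd2fl/fl and 1797, 250 and 750 in Nsd2ΔIE, the order of Hoxa13. It was also named after its values were seen. Hoxa11os, antisense to Hoxa11, had 5320, 713 and 2860, and then 5377, 1262 and 3671 counts. Nsd2fl/fl 2 and Nsd2ΔIE 2 were its lowest libraries, while Hoxa11 was not lowest there. Gm53, within the Hoxb cluster, was even, at 1224 to 1632 counts. Hoxb3os, antisense to Hoxb2 and Hoxb3, had 19, 6 and 8 counts and then 24, 43 and 64. Its log2 fold change was 1.85 ± 0.561 (SE) and, by edgeR's quasi-likelihood test, its adjusted p was 0.328. Hoxb3os was the only one of 7 tested with an unadjusted p under 0.05.

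Outside the clusters, 4 of 9 tested flanking genes had the order of Hoxb13 (all genes, 12.8%). Ttll6, a tubulin glutamylase 28.1 kb from the Hoxb cluster, had 2166, 432 and 1002 counts, and then 1704, 527 and 883, and the others were Hibadh, Mtx2 and Lnpk. Their gaps were narrow beside that of Hoxb13. The lowest of the high libraries and the highest of the rest had 28.14 and 21.28 CPM for Ttll6 and 104.2 and 97.11 for Hibadh. For Mtx2 they had 60.64 and 59.04, for Lnpk 15.69 and 13.62, and for Hoxb13 310 and 26.18 CPM. Atp5g2, a subunit of ATP synthase, was even at 6616 to 8094 counts. Skap1 and Skap2, adaptor proteins of immune cells, had log2 fold changes of 0.68 ± 0.269 and -0.62 ± 0.221 (SE), with adjusted p of 0.428 and 0.385 by edgeR's quasi-likelihood test.

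The TALE cofactors help Hox proteins to choose their sites on DNA. Of 11 genes 8 had a fitted change above 0, with a median of 0.31, and 2 were higher at an unadjusted p under 0.05 (all genes, 8.15%). Meis1 had 315, 186 and 277 counts in Nsd2fl/fl and 423, 602 and 696 in Nsd2ΔIE. The groups did not overlap, the log2 fold change was 1.01 ± 0.250 (SE) and, by edgeR's quasi-likelihood test, the adjusted p was 0.302. Meis2 had a log2 fold change of 0.83 ± 0.308 (SE). Pbx2 and Tgif1, the most abundant, had log2 fold changes of 0.15 ± 0.110 and -0.10 ± 0.210 (SE).

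The regulators of Hox chromatin were nearly level. Of 23 Polycomb and trithorax genes, 12 had a fitted change above 0 and 11 below, with a median of 0.01. Cbx6, a Polycomb chromodomain protein, had 956 to 1326 counts in Nsd2fl/fl and 1650 to 2135 in Nsd2ΔIE, a log2 fold change of 0.57 ± 0.141 (SE). Kdm6a, an X-linked demethylase of H3K27 that escapes X inactivation, had a log2 fold change of 0.58 ± 0.140 (SE), beside the sex-linked pattern given above. Both had an adjusted p of 0.302 by edgeR's quasi-likelihood test. Eed and Ezh1, members of Polycomb repressive complexes, had -0.13 ± 0.137 and -0.13 ± 0.194 (SE) on the log2 scale.

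Retinoic acid genes had more variable members. Aldh1a1, a retinaldehyde dehydrogenase, had 1684, 14932 and 1150 counts in Nsd2fl/fl and 2958, 18190 and 10421 in Nsd2ΔIE, and it was among 5 of 14 tested genes with the order opposite to Hoxb13 (all genes, 9.55%). Rxra, a retinoid receptor, was another, at 2975 to 6362 counts. Aldh1a2, a second enzyme of retinoic acid synthesis, had 171, 188 and 94, and then 213, 468 and 607 counts, a log2 fold change of 1.36 ± 0.424 (SE). Rxrg had 10 to 13 counts and then 34 to 61, a log2 fold change of 1.86 ± 0.374 (SE). Cyp26b1, which degrades retinoic acid, had 83 to 155 and then 62 to 83 counts, a log2 fold change of -0.94 ± 0.316 (SE). Their adjusted p were 0.336, 0.302 and 0.363 by edgeR's quasi-likelihood test.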

How the data were processed

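The labels gave each library's group and number, and all 6 libraries were used. Submitters' processing notes name fastp, HISAT2, HTSeq, R 3.2.0 and the build mm10. The annotation and the use of strand are not given in the sources used here. The authors deposited whole-number counts per gene symbol and FPKM values per gene symbol for each library. Lengths implied by count and FPKM agreed between libraries to within 0.0550 bases over 17863 genes. The closest pair of libraries differed by a chi-square of 35.5 per degree of freedom, well above sampling noise. Whether replicates are separate animals rests on the labels, and p-values measure only the spread between them.

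The counts were fitted with edgeR 4.0.16 (R 4.3.3; filterByExpr, TMM, quasi-likelihood test, two-sided, 16347 genes, Benjamini-Hochberg over all). DESeq2 1.42.0, limma-voom (limma 3.58.1), other scalings, no filter, log2 FPKM with a pseudocount of 1 or 0.1, a replicate block and each library left out were alternatives. FPKM served to compare genes and CPM to compare libraries. Scripts were tested on simulated counts.

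The members and gene lists were chosen with earlier results of these data known. Values in every library were to be given for the paralog group 13 genes, the gene of highest mean FPKM in each cluster and those with an unadjusted p under 0.05, and from other lists for genes at that p and the 2 of highest mean FPKM. Genes named beyond this rule were chosen after their values were seen, to show the order of the libraries or cluster neighbours. Positions and promoters are from RefSeq GRCm38.p6, which placed 36 of 36 genes. Some genes are counted in the totals but not reported here by name.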

Additional observations from a re-analysis of the deposited data

How the results depend on the processing

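Under 15 other settings no Hox gene had an adjusted p under 0.05, the lowest for any Hox gene running from 0.163 to 0.990. Of all genes 455 met it by DESeq2 and 3 to 6 under each of the other settings. The number of Hox genes higher in Nsd2ΔIE at an unadjusted p under 0.05 was 0 by limma-voom (all genes, 8.94%), against 1. When single libraries were left out it was 0 to 12 (all genes, 4.06% to 10.5%). The number lower was then 0 to 1 (all genes, 0.88% to 5.59%), against 0. Replicate numbers are shared between the groups. The correlations of deviations between same-numbered libraries were 0.540, 0.727 and -0.0983 over 16327 genes, and 4 of 6 libraries correlated best with their own number, so the numbers were not taken as pairs. A replicate block gave 3 of 29 higher at an unadjusted p under 0.05 (Hoxb2, Hoxd8, Hoxd9), against 9.1% of all genes, and a lowest adjusted p of 0.321. The log2 fold change of Hoxa10 turned to -0.0169 without Nsd2fl/fl 2 and to -0.0922 without Nsd2ΔIE 3, with all values with a library left out from -0.0922 to 0.28. That of Hoxa13 turned to -0.40 without Nsd2fl/fl 2, -0.37 without Nsd2ΔIE 1 and -0.01 without Nsd2ΔIE 3, within -0.40 to 0.44. Hoxb13 kept its sign, from -3.92 to -0.32, as did Hoxd13, from -7.88 to -1.58, Hoxb2 and Hoxc4. The cause of these shifts was not tested. Scaling by library totals alone moved the median of all genes to 0.09 from -0.04. With 3 libraries a group and an SE near 2 for Hoxb13 and Hoxd13, a genotype difference of several-fold was not detectable in these genes.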
